A study of Mus musculus with 6 samples.

Results

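The transcripts of the mitochondrial genome were described in immortalized cardiosphere-derived cells (iCDCs) of the mouse, in control cells and in cells induced with 5-azacytidine. The members were all genes that the table of counts places on chromosome MT, which were 37 of 54532 genes. They comprised 13 messenger RNAs (mRNAs), 2 ribosomal RNAs (rRNAs) and 22 transfer RNAs (tRNAs). The cells carry the C57BL/6 background and were taken from heart ventricle according to the labels, and from its epicardium according to the methods of the study. All 6 libraries came from cells at passage 30 of a line immortalized with a lentiviral human telomerase (hTERT) driven by a CMV promoter and selected with puromycin, so the controls carry the transgene too. The 3 induced libraries came from cells given 10 µM of 5-azacytidine, an inhibitor of DNA methylation, for 3 days and then kept for 4 weeks in IMDM with 2% FBS. The methods of the study name another medium and a shorter time for that culture, and do not say how long or in which medium the control cells were kept. Drug, serum and time in culture can therefore not be told apart here.

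The mitochondrial genome is a small circle of DNA with almost no space between its genes. Both strands are copied into long precursor RNAs, and the tRNAs that lie between most of the other genes mark where the precursors are cut. The rRNAs build the ribosome of the organelle, the tRNAs serve its translation, and the mRNAs encode core subunits of respiratory complexes I, III and IV and of ATP synthase (complex V). Every factor that replicates the genome or makes, cuts, modifies and degrades its RNA is encoded in the nucleus. Heart muscle is known for its density of mitochondria, which supply most of the ATP it uses.

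Total counts ranged from 19041133 to 19823369 per library. With 3 counts as the limit, a gene with 0 counts may still have had 0.151 to 0.158 CPM (counts scaled to the total of the library), and this limit covers counting error only. The epicardial genes Wt1, Tbx18, Tcf21 and Upk3b summed to 347 to 359 CPM in control and 1020 to 1143 CPM in induced libraries. Most of this sum was Upk3b (254 ± 0.673 and 941 ± 62.9 CPM, SD, n = 3), and Tbx18 went the other way (63.6 ± 4.89 and 50.6 ± 4.59 CPM, edgeR adjusted p = 0.000429). Of the surface genes of cardiosphere cells, Thy1 (113 ± 2.04 and 164 ± 9.57 CPM, edgeR adjusted p = 5.6e-08) and Eng (360 ± 0.329 and 392 ± 13 CPM, adjusted p = 0.019) were higher in induced cells. Ly6a was lower (31.6 ± 0.81 and 21.3 ± 3.33 CPM, adjusted p = 2.89e-05). The 10 cardiomyocyte genes summed to 13.2 to 16.1 CPM in control and 59.3 to 62.7 CPM in induced libraries. Nearly all of this sum was Tnnt2 (13.1 ± 1.62 and 58.1 ± 1.92 CPM, SD, n = 3). Only Tnnt2 and Tnni3 had enough reads to be tested, and Tnni3 did not pass (edgeR adjusted p = 0.144). Myh6, Actn2, Pln and Nppa had 0 reads in every control library. The 5 genes of dividing cells were all lower after induction, at 556 to 573 CPM in control and 135 to 143 CPM in induced libraries. Endothelial genes stayed under 1 CPM in sum (0.255 to 0.506 and 0.578 to 0.942), and 4 of 6 leukocyte genes had 0 reads. The other 2 leukocyte genes differed in opposite directions, with Csf1r at 22.6 ± 1.05 CPM in control and 10.9 ± 0.672 CPM after induction (edgeR adjusted p = 6.3e-09) and Fcer1g at 2 reads in the control and 187 reads in the induced libraries (adjusted p = 2.97e-09). In bulk RNA, fewer cells of a type and less RNA per cell cannot be told apart.

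All 37 mitochondrial genes have the same start, end and strand in the table and in the GENCODE M21 annotation of GRCm38, and sequences were read from the transcripts of that annotation. The tRNA genes whose counts differed between the groups are shown first, 5′ to 3′ in the sense of the tRNA and with the anticodon in capitals, because the 5 of the light strand were higher and the 2 of the heavy strand lower in induced cells. Their anticodons were found as the triplet in the middle of a loop of 7 bases closed by a stem of 5 positions. All 5 of these positions paired except in mt-Ts2, where 4 did.
mt-Tp: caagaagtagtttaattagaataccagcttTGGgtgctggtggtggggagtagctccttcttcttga
mt-Tn: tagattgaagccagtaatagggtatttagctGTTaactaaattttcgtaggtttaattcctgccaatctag
mt-Tc: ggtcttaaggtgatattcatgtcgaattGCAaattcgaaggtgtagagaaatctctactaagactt
mt-Ty: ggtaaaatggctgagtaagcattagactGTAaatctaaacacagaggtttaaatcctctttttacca
mt-Te: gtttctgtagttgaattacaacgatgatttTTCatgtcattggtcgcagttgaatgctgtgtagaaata
mt-Th: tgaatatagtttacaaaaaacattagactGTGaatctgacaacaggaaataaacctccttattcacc
mt-Ts2: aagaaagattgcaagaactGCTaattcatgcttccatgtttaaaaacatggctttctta

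The light-strand genes mt-Tp (MT:15356-15422), mt-Tn (MT:5089-5159), mt-Tc (MT:5192-5257), mt-Ty (MT:5260-5326) and mt-Te (MT:14071-14139) encode the tRNAs for proline, asparagine, cysteine, tyrosine and glutamate. The heavy-strand genes mt-Th (MT:11546-11612) and mt-Ts2 (MT:11613-11671) encode those for histidine and for serine. Each is 59 to 71 bases long. Their neighbouring genes overlap them by 1 base or lie 0 to 5 bases away, apart from the 32 bases between mt-Tn and mt-Tc and from the side of mt-Tp that faces the noncoding control region.

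Part of the mitochondrial genome has a near-identical copy on chromosome 1, where 7 annotated pseudogenes lie on the minus strand in one run (chr1:24611535-24616197, GRCm38). They copy mt-Nd4 in part, mt-Nd4l, mt-Nd3, mt-Co3, mt-Atp6, mt-Co2 and the last part of mt-Co1. Over their aligned bases, 5 of the 7 did not differ from the mitochondrial gene. Gm28438 differed from mt-Nd3 at 1 of 345 bases (99.7% identity), and Gm29216 differed from mt-Co1 at 6 of 492 bases (98.8% identity). The stretches printed here hold every difference that was found over the aligned bases of the 7 pairs. Capitals mark the bases that differ, mt-Nd3 covers MT:9459-9491 and Gm28438 chr1:24613087-24613119, and mt-Co1 covers MT:6381-6470 and Gm29216 chr1:24616108-24616197.
mt-Nd3: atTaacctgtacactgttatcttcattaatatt
Gm28438: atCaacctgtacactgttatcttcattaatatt
mt-Co1: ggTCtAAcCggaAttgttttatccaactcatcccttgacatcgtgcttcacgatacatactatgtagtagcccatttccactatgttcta
Gm29216: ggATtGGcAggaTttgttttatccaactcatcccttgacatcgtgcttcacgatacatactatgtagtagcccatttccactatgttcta

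Counted from 1 at the first base of the mitochondrial gene, with the mitochondrial base first, the difference of mt-Nd3 is T3C and those of mt-Co1 are T1056A, C1057T, A1059G, A1060G, C1062A and A1066T. The differences of mt-Co1 all lie within the first 13 bases of its copy, and the rest of that copy is identical.

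The first question was what share of the counts of each library came from mitochondrial genes. Mitochondrial genes took 1.53%, 1.6% and 1.55% of all counts in the control libraries and 1.53%, 1.56% and 1.7% in the induced libraries. The groups overlapped, and the means of 1.56% ± 0.0379 and 1.6% ± 0.087 (SD, n = 3) differed by 0.0391 percentage points (two-sided exact permutation test, p = 0.6). Without induced replicate 3 the difference was -0.0104 percentage points. No difference in this share was detectable, and its sign rested on 1 library. The genes mt-Co2, mt-Atp8, mt-Atp6, mt-Co3, mt-Nd3 and mt-Nd4l added few reads to the share, as described below. The methods of the study name a kit or an oligo(dT) method (capture by the poly(A) tail). Which was used for these libraries is not given, so the share describes the libraries and not the cells.

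The 3 classes of RNA were then compared as sums, on the scale of CPM after TMM scaling and with edgeR's quasi-likelihood test and Benjamini-Hochberg adjustment over all genes. Summed mRNA was 14478, 15156 and 14755 CPM in control and 14944, 14989 and 16491 CPM in induced libraries. The groups overlapped, and the log2 fold change of induced against control cells was 0.07 ± 0.04 (SE, adjusted p = 0.157). It passed the test without induced replicate 2 (0.09, adjusted p = 0.0102) and without a filter on low counts (0.07, adjusted p = 0.0333). Summed rRNA was 510, 557 and 570 CPM in control and 638, 585 and 724 CPM in induced libraries. It was higher in all 3 induced libraries than in any control library, by a log2 fold change of 0.25 ± 0.06 (adjusted p = 0.00204). Summed tRNA was 44.4, 48.9 and 44.1 CPM in control and 74.8, 60.2 and 67.2 CPM in induced libraries. It was also higher without overlap, by 0.56 ± 0.07 (adjusted p = 1.36e-06).

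Whether mRNA and rRNA changed alike was tested on their ratio, which needs no scaling factor. The log2 ratio of mRNA to rRNA counts was 4.83, 4.77 and 4.69 in control and 4.55, 4.68 and 4.51 in induced libraries. These ratios did not overlap, with a difference of -0.182 (two-sided exact permutation test, p = 0.1, the smallest that 3 against 3 libraries allow).

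**Figure D1:**
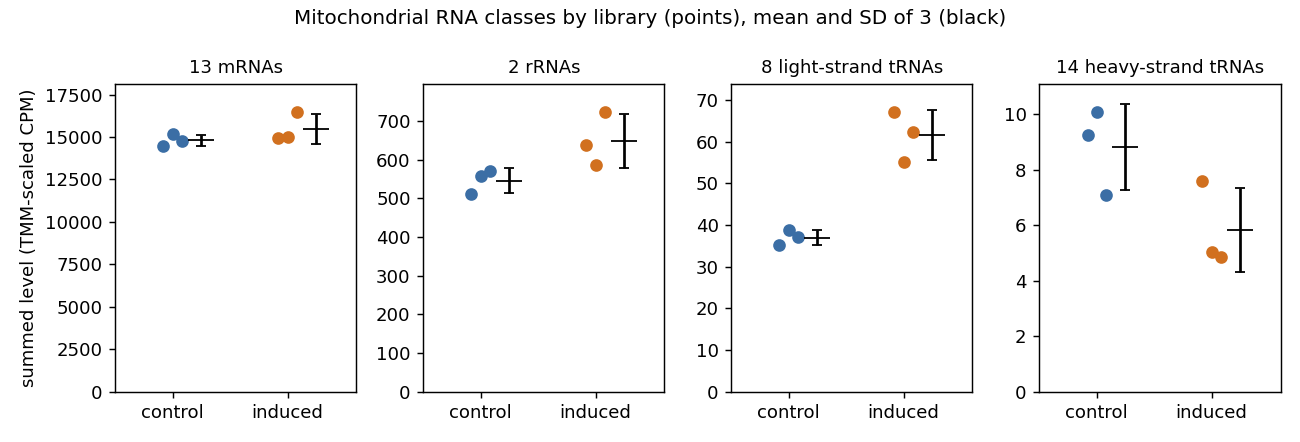
Summed level of the mitochondrial mRNAs, rRNAs, light-strand tRNAs and heavy-strand tRNAs in each library, in TMM-scaled CPM from 0, with the 3 control (blue) and 3 induced (orange) libraries as points and their mean and SD in black. The induced libraries lie above all control libraries for rRNA (585 to 724 against 510 to 570 CPM) and light-strand tRNA (55.2 to 67.2 against 35.1 to 38.8 CPM), and overlap the controls for mRNA and heavy-strand tRNA.

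Of the 37 genes, 24 had enough reads for a test of each gene, comprising 12 mRNAs, 2 rRNAs and 10 tRNAs. At an adjusted p of 0.05, 13 of these 24 (54.2%) differed between the groups, where 64.8% of all 14246 tested genes did. Higher levels in induced cells were found for 11 of them and lower levels for 2, against 32.6% and 32.2% of all tested genes. The groups did not overlap for 13 of the 24 (54.2%), against 68.6% of all tested genes. Both shares of the mitochondrial genes lay below those of all tested genes. The median log2 fold change of the 24 genes was 0.11, where the median over all tested genes was -0.01. The split of calls moved between 9 higher with 1 lower under a stricter filter on low counts and 11 higher with 3 lower without any such filter.

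**Figure D2:**
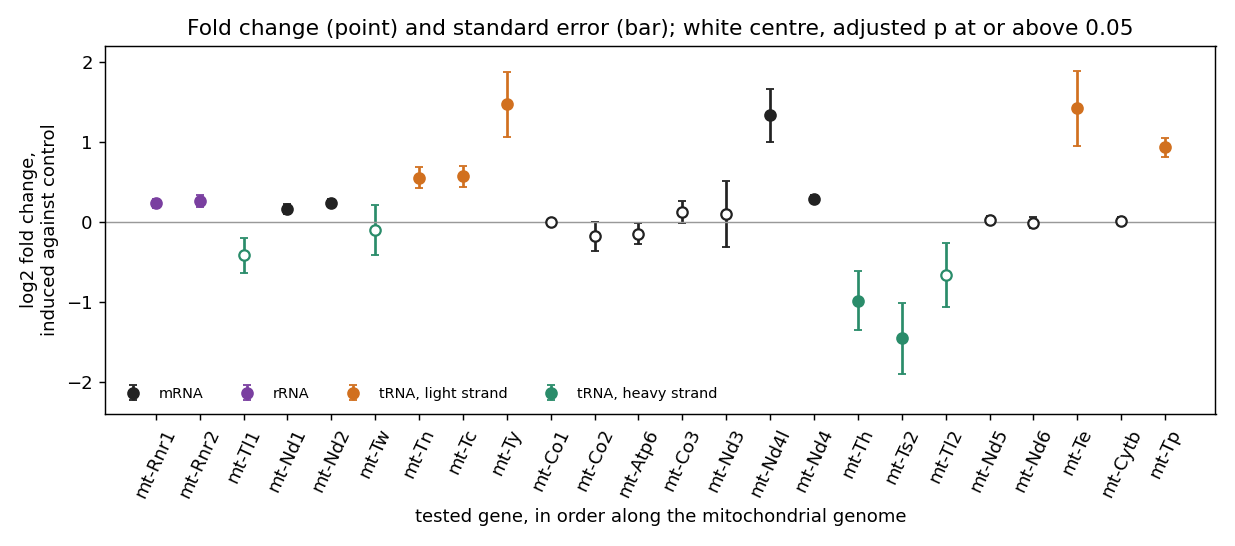
Log2 fold change of induced against control cells for the 24 tested mitochondrial genes in their order along the genome, with the standard error as a bar and a white centre where the adjusted p was at or above 0.05. The mRNAs lie between -0.18 and 0.29 except mt-Nd4l at 1.33, the 5 light-strand tRNAs lie between 0.55 and 1.47, and the 5 heavy-strand tRNAs lie between -1.46 and -0.10.

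Levels of different genes were compared per length, as the deposited FPKM (a count divided by the length of the gene and the depth of the library). The mRNAs fell into separate ranges by position. In control cells the 7 mRNAs mt-Nd1, mt-Nd2, mt-Co1, mt-Nd4, mt-Nd5, mt-Nd6 and mt-Cytb had mean levels from 514 FPKM (mt-Nd4) to 4597 FPKM (mt-Co1). The other 6, mt-Co2, mt-Atp8, mt-Atp6, mt-Co3, mt-Nd3 and mt-Nd4l, are neighbours on the genome and had mean levels from 1.14 FPKM (mt-Atp8) to 38.8 FPKM (mt-Co2). In induced cells these ranges were 593 (mt-Nd6) to 4631 FPKM (mt-Co1) and 0.689 (mt-Atp8) to 34.6 FPKM (mt-Co2). The lowest of the 7 exceeded the highest of the 6 by 9.34, 14.4 and 19.8 times in the control libraries and by 12.2, 16.1 and 23.5 times in the induced libraries, so the gap was present in all 6 libraries.

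The low range coincided with the stretch copied on chromosome 1. Of all windows of 100 bases, the read length that the methods of the study give, 99.5% in mt-Co2, 99.5% in mt-Atp6, 99.9% in mt-Co3, 97.6% in mt-Nd3 and 98.5% in mt-Nd4l occurred unchanged in a transcript of another gene. The share was 60.8% in mt-Nd4, 30.8% in mt-Co1 and 3.19% in mt-Nd2, and 0 in both rRNAs, mt-Nd1, mt-Nd5, mt-Nd6 and mt-Cytb. It was also 0 in mt-Atp8. Its neighbours are copied, but no transcript is annotated between the end of Gm10925 and the start of Gm28661. Whether mt-Atp8 itself is copied there could not be examined, and it is counted with the copied stretch by its position. With windows of 50 bases the share was 51.1% in mt-Co1, 62.2% in mt-Nd4, 8.19% in mt-Nd2, 7.61% in mt-Nd5 and 1.04% in mt-Rnr2. The methods and the description of the series name different sequencers, so the read length of these libraries is uncertain, and only annotated transcripts were searched, so the shares are lower bounds. How the counting treated reads that match several places is not given in the sources used here, and the part of such reads in the low levels was not tested.

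**Figure D3:**
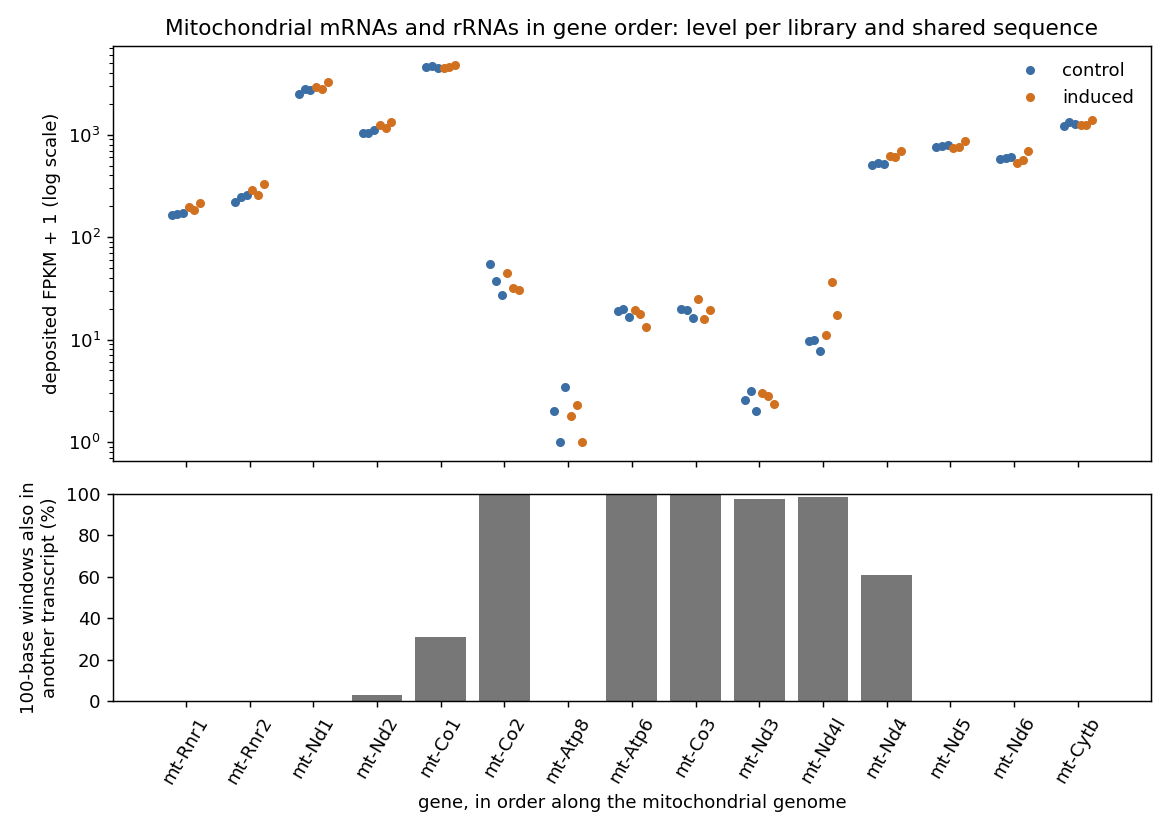
Upper panel, deposited FPKM plus 1 on a log axis for the 13 mRNAs and 2 rRNAs in gene order, with control libraries in blue and induced libraries in orange. Lower panel, percent of the 100-base windows of each gene that occur unchanged in another transcript, which is 97.6% to 99.9% for mt-Co2, mt-Atp6, mt-Co3, mt-Nd3 and mt-Nd4l, whose levels lie with mt-Atp8 below all other genes.

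The reads counted for each gene and its copy were set side by side over all 6 libraries. For mt-Atp6, 1329 reads were counted for the mitochondrial gene and 1302 for Gm10925, and the copy held 48.2% to 52.5% of both in each library. For mt-Co3 these were 1679 reads and 1590 reads for Gm28437 (42.5% to 53.2%), and for mt-Co2 2933 reads and 1648 reads for Gm28661 (26.4% to 45.8%). These 3 pairs have identical aligned sequences. So has mt-Nd4l, with 492 reads and 314 reads for Gm10222, and there the copy held 19.4% to 56.9% of both. For mt-Nd3, with its 1 differing base, 67 reads were counted for the mitochondrial gene and 760 for Gm28438, so that the copy held 89.5% to 94.6% of both.

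For the genes that lie only in part within the copy, nearly all counted reads were those of the mitochondrial gene. How many of these came from the part outside the copy was not tested. For mt-Nd4, 92379 reads were counted and 620 for Gm28439, and for mt-Co1, 833252 reads and 969 for Gm29216 (0.0771% to 0.14% of both). None of the 7 pseudogenes passed edgeR's test (adjusted p from 0.0803 to 0.905), where 64.8% of all tested genes did. Gm28661 had a log2 fold change of 0.42 and passed it under the replicate block (0.36, adjusted p = 0.0365), without a filter (adjusted p = 0.000163) without induced replicate 2 (0.66, adjusted p = 0.00074) and without induced replicate 3 (0.56, adjusted p = 0.0333), while without induced replicate 1 it was at -0.04. Gm28437, at -0.25, passed it with library totals alone (-0.29, adjusted p = 0.0463) without control replicate 3 (-0.38, adjusted p = 0.00749) and without induced replicate 1 (-0.34, adjusted p = 0.042), as did Gm28438, at -0.23, without induced replicate 1 (-0.41, adjusted p = 0.033). The 7 pseudogenes summed to 62.1 ± 9.9 CPM in control cells and 61.9 ± 14.2 CPM after induction (SD, n = 3). The summed level of the 6 mRNAs of this stretch, with mt-Atp8 included by its position, was 55.8 ± 12 and 56.4 ± 8.53 CPM. These sums cover different genes, since the pseudogenes include parts of mt-Nd4 and mt-Co1 but none of mt-Atp8. The 7 other mRNAs, which carry almost all mitochondrial reads, summed to 14741 ± 346 and 15418 ± 888 CPM. Fold changes of mt-Co2, mt-Atp6, mt-Co3, mt-Nd3 and mt-Nd4l are therefore uncertain, since reads of the mitochondrial gene and the copy cannot be told apart. The same limit holds for the shared parts of mt-Nd4 and mt-Co1, and so for their levels per length and their shares of mRNA.

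Complex I (NADH dehydrogenase) takes electrons into the respiratory chain, and its 7 mitochondrial subunits are encoded by the mt-Nd genes. Among the 7, mt-Nd1, mt-Nd2, mt-Nd4 and mt-Nd4l were higher in induced cells, and the other 3 did not pass the test. Among all tested genes, 64.8% were called in either direction and 32.6% higher. The level of mt-Nd4 (MT:10167-11544) was 694, 735 and 715 CPM in control and 845, 828 and 955 CPM in induced libraries. The groups did not overlap, and its log2 fold change was 0.29 ± 0.05 (SE, edgeR adjusted p = 6.68e-05). The level of mt-Nd2 (MT:3914-4951) was 1080, 1082 and 1151 CPM in control and 1305, 1200 and 1376 CPM in induced libraries. It was likewise higher in every induced library, by 0.23 ± 0.05 (adjusted p = 0.000528). These changes were smaller than the median absolute change of all tested genes (0.36), and 8230 genes had a larger absolute change than mt-Nd4.

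The level of mt-Nd1 (MT:2751-3707), the first mRNA after the rRNAs, was 2394, 2687 and 2622 CPM in control and 2797, 2664 and 3145 CPM in induced libraries. Its groups overlapped, and the log2 fold change was 0.16 ± 0.06 (adjusted p = 0.0168). The call was lost without control replicate 1 (0.12, adjusted p = 0.132), without induced replicate 3 (0.10, adjusted p = 0.0773) and in limma on the deposited FPKM (0.17, adjusted p = 0.204). The level of mt-Nd5 (MT:11742-13565) was 1387, 1420 and 1449 CPM in control and 1355, 1380 and 1578 CPM in induced libraries, with a log2 fold change of 0.02 ± 0.05 (adjusted p = 0.759). Its groups overlapped.

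The gene mt-Nd4l (MT:9877-10173) had the largest fold change of the mRNAs and rested on few reads. Its counts were 51, 53 and 40 in control and 56, 199 and 93 in induced libraries, which is 2.58, 2.7 and 2 CPM against 2.97, 10.5 and 4.87 CPM. Induced replicate 1 lay next to the controls and induced replicate 2 far above all other libraries. The log2 fold change was 1.33 ± 0.33 (adjusted p = 0.00168), and 0.70 without induced replicate 2 (adjusted p = 0.0116). Its pseudogene Gm10222 had a log2 fold change of -0.20 (adjusted p = 0.513), and 7 bases of mt-Nd4l overlap mt-Nd4, which also was higher in induced cells. The level of mt-Nd3 (MT:9459-9806) was 0.35 to 0.764 CPM in control and 0.471 to 0.69 CPM in induced libraries, with a log2 fold change of 0.10 ± 0.41 (adjusted p = 0.842).

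The only mRNA of the light strand is mt-Nd6 (MT:13552-14070), which encodes a membrane subunit of complex I. Its level was 302, 309 and 318 CPM in control and 275, 294 and 355 CPM in induced libraries. The groups overlapped, with the lowest and the highest value both in induced libraries, and the log2 fold change was -0.01 ± 0.07 (adjusted p = 0.927). The log2 ratio of mt-Nd6 counts to those of the 12 heavy-strand mRNAs was -5.55, -5.59 and -5.5 in control and -5.74, -5.65 and -5.51 in induced libraries. The ratio differed by -0.0811 (two-sided exact permutation test, p = 0.3), by -0.0279 without induced replicate 1 (exact p = 0.6) and by -0.143 without induced replicate 3 (exact p = 0.1, the smallest possible). The methods of the study name a kit whose standard protocol does not mark strand, or an oligo(dT) method. Which was used for these libraries and the strand setting of the counting are not given. Reads counted for mt-Nd6 may therefore include RNA of the other strand over the same bases.

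Complex III passes electrons to cytochrome c and holds 1 mitochondrial subunit, cytochrome b. The level of mt-Cytb (MT:14145-15288) was 1407, 1523 and 1455 CPM in control and 1407, 1424 and 1590 CPM in induced libraries. The groups overlapped, and the log2 fold change was 0.01 ± 0.05 (adjusted p = 0.85).

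Complex IV (cytochrome c oxidase) passes electrons to oxygen, and its 3 core subunits are encoded by mt-Co1, mt-Co2 and mt-Co3. The gene mt-Co1 (MT:5328-6872) ranked as number 3 of all genes by mean CPM. Its level was 7147, 7343 and 7001 CPM in control and 6895, 7142 and 7443 CPM in induced libraries. The groups overlapped on both sides, and the log2 fold change was 0.00 ± 0.04 (adjusted p = 0.988). The levels of mt-Co2 (MT:7013-7696) were 36.9, 25.4 and 18 CPM in control and 29.8, 21.2 and 19.9 CPM in induced libraries, with a log2 fold change of -0.18 ± 0.18 (adjusted p = 0.407). Those of mt-Co3 (MT:8607-9390) were 15, 14.6 and 11.9 CPM against 18.9, 11.8 and 14.6 CPM, with 0.12 ± 0.14 (adjusted p = 0.447). Both overlapped between the groups. The sign of mt-Co2 changed without control replicate 1 (0.13), and it passed the test without control replicate 3 (-0.39, adjusted p = 0.0275). That of mt-Co3 changed without induced replicate 1 (-0.07), and it passed the test without induced replicate 2 (0.28, adjusted p = 0.036).

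Complex V makes ATP, and its mitochondrial subunits a and A6L are encoded by mt-Atp6 and mt-Atp8, which overlap by 43 bases. The level of mt-Atp6 (MT:7927-8607) was 12.2, 13.1 and 10.8 CPM in control and 12.6, 11.5 and 8.32 CPM in induced libraries, with a log2 fold change of -0.15 ± 0.13 (adjusted p = 0.337). The gene mt-Atp8 (MT:7766-7969) had counts of 4, 0 and 10 in control and 3, 5 and 0 in induced libraries and was not tested. At 22 reads in all, a difference between the groups was not detectable.

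The composition of the mRNA was compared next. As shares of the summed mRNA counts of a library, which need no scaling factor, 2.93 percentage points moved between genes from control to induced cells (two-sided exact permutation test, p = 0.1, the smallest possible). The share of mt-Nd4 was 4.8%, 4.85% and 4.85% in control and 5.66%, 5.53% and 5.79% in induced libraries. The mean share of mt-Nd1 was 17.3% ± 0.701 in control and 18.5% ± 0.672 in induced cells (SD, n = 3), and that of mt-Nd2 was 7.47% ± 0.331 and 8.36% ± 0.361. The share of mt-Cytb was lower in induced cells, at 9.88% ± 0.167 in control and 9.52% ± 0.114 after induction. With mt-Nd4l these were the 5 of 13 genes whose shares did not overlap between the groups, each with an exact permutation p of 0.1 and 0.26 after adjustment over the 13 genes. On another measure, the level in CPM, the groups did not overlap for 68.6% of all tested genes. Shares of 1 total depend on each other, and the level of mt-Cytb had a log2 fold change of 0.01 (edgeR adjusted p = 0.85). The share of mt-Co1 was 49.4%, 48.4% and 47.4% against 46.1%, 47.7% and 45.1%, which overlapped (exact permutation p = 0.2, adjusted 0.371). Without the 6 genes of the copied stretch the amount that moved was 2.91 percentage points.

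Both rRNAs were higher in the induced libraries. The small-subunit rRNA mt-Rnr1 (MT:70-1024) was at 157, 162 and 164 CPM in control and 185, 177 and 206 CPM in induced libraries. The large-subunit rRNA mt-Rnr2 (MT:1094-2675) was at 352, 395 and 407 CPM in control and 453, 408 and 518 CPM in induced libraries. Neither gene overlapped between the groups, although the highest control library of mt-Rnr2 was at 407 CPM and the lowest induced library at 408 CPM. The log2 fold changes were 0.23 ± 0.06 for mt-Rnr1 (adjusted p = 0.0014) and 0.26 ± 0.07 for mt-Rnr2 (adjusted p = 0.00366), and 0.17 for mt-Rnr2 without induced replicate 3 (adjusted p = 0.0237).

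The levels of both rRNAs kept a similar ratio to each other. Per length, mt-Rnr2 was 1.44 ± 0.0777 times mt-Rnr1 in control and 1.46 ± 0.061 times in induced cells (SD, n = 3). The rRNAs lay below every mRNA outside the copied stretch, at mean levels of 167 (mt-Rnr1) and 241 FPKM (mt-Rnr2) in control and 198 and 290 FPKM in induced cells. The mRNA mt-Co1 was 19.1 ± 1.57 times as abundant per length as mt-Rnr2 in control and 16.1 ± 1.66 times in induced cells. The methods of the study name a kit or an oligo(dT) method, and do not say which was used for these libraries. The rRNA levels, their differences between the groups and their order and ratio to mRNA therefore describe the libraries and not the cells.

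The tRNAs took 877 to 1409 counts per library, and 658 was the most for any tRNA gene in any library. Of the 8 tRNA genes of the light strand, 5 were tested and all 5 were higher in induced cells. Of the 14 tRNA genes of the heavy strand, 5 were tested, of which 2 were lower and 3 did not pass the test. Of all tested genes, 32.6% were called higher and 32.2% lower. The split by strand was made after the values of the genes had been seen, so it is given as a description. The light-strand genes summed to 35.1, 38.8 and 37 CPM in control and 67.2, 55.2 and 62.3 CPM in induced libraries, without overlap. The heavy-strand genes summed to 9.26, 10.1 and 7.11 CPM in control and 7.59, 5.04 and 4.87 CPM in induced libraries, which overlapped. Light-strand genes thus had 3.79, 3.83 and 5.2 times the reads of heavy-strand genes in control and 8.85, 10.9 and 12.8 times in induced libraries.

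Among the light-strand tRNAs printed above, mt-Tp, next to the noncoding control region, had the most reads. Its level was 15.4, 13.9 and 14.6 CPM in control and 34.9, 25.2 and 23.4 CPM in induced libraries. Every induced library was well above all controls, and the log2 fold change was 0.93 ± 0.12 (SE, edgeR adjusted p = 2.03e-06), the smallest p of the mitochondrial genes. The neighbours mt-Tn and mt-Tc lie on both sides of the replication origin of the light strand. The level of mt-Tn was 10.6, 12.9 and 12.3 CPM in control and 15.6, 14.9 and 21.8 CPM in induced libraries, with a log2 fold change of 0.55 ± 0.13 (adjusted p = 0.00121), and of 0.36 without induced replicate 3 (adjusted p = 0.0106). That of mt-Tc was 7.69, 11.3 and 9.46 CPM against 14.6, 12.2 and 15.4 CPM, with 0.57 ± 0.13 (adjusted p = 0.000867). Neither gene overlapped between the groups.

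The remaining light-strand genes had few reads. The level of mt-Ty was 0.709, 0.255 and 0.3 CPM in control and 1.27, 1.37 and 0.89 CPM in induced libraries, with a log2 fold change of 1.47 ± 0.41 (adjusted p = 0.00414). It did not overlap, on counts of 5 to 26. The level of mt-Te was 0.506, 0.204 and 0.3 CPM in control and 0.584, 1.42 and 0.733 CPM in induced libraries, with 1.42 ± 0.47 (adjusted p = 0.0127). Its call was lost in DESeq2 (adjusted p = 0.0565), without control replicate 2 (1.16, adjusted p = 0.0651) and without induced replicate 2 (0.96, adjusted p = 0.114).

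The heavy-strand tRNAs mt-Th, mt-Ts2 and mt-Tl2 form a run between mt-Nd4 and mt-Nd5. The level of mt-Ts2 was 1.32, 1.22 and 0.55 CPM in control and 0.425, 0.473 and 0.209 CPM in induced libraries, with a log2 fold change of -1.46 ± 0.44 (adjusted p = 0.00746). That of mt-Th was 1.21, 1.58 and 1 CPM against 0.796, 0.315 and 0.785 CPM, with -0.99 ± 0.37 (adjusted p = 0.0253). Both were lower in every induced library than in any control library, on 82 and 111 reads over all libraries. The call of mt-Th was lost in DESeq2 (adjusted p = 0.108), without control replicate 1 (-1.02, adjusted p = 0.0537), without control replicate 2 (-0.81, adjusted p = 0.119) and without induced replicate 2 (-0.67, adjusted p = 0.134). The levels of mt-Tl2 were 2.63, 2.6 and 1.35 CPM against 2.55, 1.1 and 0.471 CPM and overlapped (-0.67 ± 0.40, adjusted p = 0.151), and its log2 fold change was -1.47 without induced replicate 1 (adjusted p = 0.00583) and -0.26 without induced replicate 3 (adjusted p = 0.557). It also passed the test without a filter on low counts (adjusted p = 0.0307) and with the replicate block (-0.76, adjusted p = 0.0356).

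The gene mt-Tl1, between mt-Rnr2 and mt-Nd1, was at 2.53, 3.67 and 2.85 CPM in control and 2.28, 1.94 and 2.51 CPM in induced libraries. It did not overlap by a small margin and did not pass the test (-0.42 ± 0.22, adjusted p = 0.0988). It passed in limma on the deposited FPKM (adjusted p = 0.0355 with a pseudocount of 1 and 0.0337 with 0.1), and without control replicate 2 it was at -0.26 (adjusted p = 0.373). The level of mt-Tw was 1 to 1.37 CPM in control and 0.838 to 1.21 CPM in induced libraries (-0.10 ± 0.31, adjusted p = 0.798). The other 12 tRNA genes had at most 12 reads each over the 6 libraries and were not tested. Of these, mt-Tf, mt-Ts1, mt-Td, mt-Tk and mt-Tg had 0 reads, and mt-Ti, mt-Tt, mt-Tr, mt-Tv, mt-Tq, mt-Tm and mt-Ta had 1, 2, 4, 5, 6, 7 and 12 reads. Among them, mt-Ts1, mt-Td, mt-Tk, mt-Tg and mt-Tr lie between genes of the stretch copied on chromosome 1. No tRNA is annotated in that copy, so their shared sequence could not be examined there. A difference in these 12 genes was not detectable with so few reads, and the part of depth and of shared sequence was not tested.

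Each of these tRNAs is shorter than a read of 100 bases, the length given in the methods, so reads counted for a tRNA gene may extend into its neighbours or come from a precursor. The precursor of the heavy strand covers the same bases as the light-strand tRNAs, and if strand was not kept both cannot be told apart. The part of precursor RNA in these counts was not tested.

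**Figure D4:**
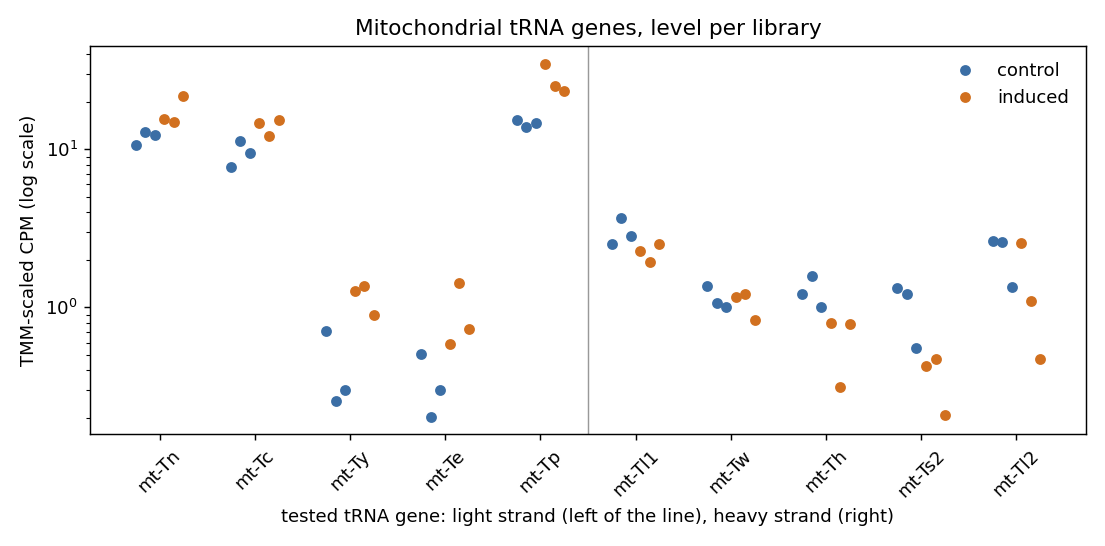
Level of the 10 tested tRNA genes in each library as TMM-scaled CPM on a log axis, with control libraries in blue, induced libraries in orange, light-strand genes left of the line and heavy-strand genes right of it. The induced libraries lie above all controls for the 5 light-strand genes, below all controls for mt-Tl1, mt-Th and mt-Ts2, and overlap them for mt-Tw and mt-Tl2.

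The nuclear genes that maintain and express the mitochondrial genome were set beside its transcripts. Of 96 such genes, 95 were tested. Induced cells had higher levels of 14 (14.7%) and lower levels of 39 (41.1%), with a median log2 fold change of -0.23 where the median of all genes was -0.01. Together 55.8% were called, below the 64.8% of all tested genes, of which 32.6% were called higher and 32.2% lower. Among the 12 genes of transcription and the nucleoid, 2 were higher and 5 lower (58.3% called). Polrmt, the RNA polymerase of mitochondria, went from 34.8 ± 1.69 to 22.8 ± 0.684 CPM (SD, n = 3), with a log2 fold change of -0.61 ± 0.07 (SE, adjusted p = 4.02e-07). Atad3a, a membrane protein that binds nucleoids, fell by 0.81 on the log2 scale (adjusted p = 5.21e-09), while Tfam, which packs the genome and starts its transcription, was at 27.1 ± 1.58 and 28.6 ± 2.35 CPM (adjusted p = 0.404). In the same libraries the summed mitochondrial mRNA, at 0.07, did not pass the test.

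The shares called in the roles that act on RNA and translation were also below the 64.8% of all tested genes, at 42.9% for processing at tRNA ends, 57.9% for modification, 50% for stability and decay and 53.3% for translation factors and insertases. Of 14 genes that process RNA at tRNA ends, 0 were higher and 6 lower. Hsd17b10, a subunit of the RNase P that cuts the 5′ ends of tRNAs, fell by 0.63 (adjusted p = 2.16e-07), and Tbrg4, of the FASTK family, by 0.46 (adjusted p = 3.52e-06). Of 19 genes that modify rRNA and tRNA, 1 was higher and 10 lower, with Gtpbp3, which modifies the wobble base of tRNAs, at -0.77 (adjusted p = 9.01e-08) and the methyltransferase Nsun2 at -0.57 (adjusted p = 3.88e-08). Of 10 genes of RNA stability and decay, 2 were higher and 3 lower, with the nuclease Lactb2 at 0.49 (adjusted p = 8.29e-07) and the helicase Supv3l1 at -0.32 (adjusted p = 0.00262). Of 15 translation factors and membrane insertases, 2 were higher and 6 lower, with the elongation factor Tufm at -0.57 (adjusted p = 1.9e-08) and the insertase Oxa1l at -0.67 (adjusted p = 6.46e-08).

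Of 17 genes of replication and maintenance, 5 were higher (29.4%) and 6 lower (35.3%), near the 32.6% and 32.2% of all tested genes, with the thymidine kinase Tk2 at 0.67 (adjusted p = 1.37e-07) and the ligase Lig3 at -0.50 (adjusted p = 4.94e-07). Of 8 tested regulators of mitochondrial biogenesis, 2 were higher and 3 lower (62.5% called), with Myc at -1.65 (adjusted p = 2.17e-14) and the nuclear receptor Esrra at 0.39 (adjusted p = 1.07e-05). The genes of dividing cells fell in the same libraries (all 5 lower), and their part in these counts was not tested.

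The nuclear subunits that join the mitochondrial ones in complexes I, III, IV and V had 24 higher (31.2%) and 19 lower (24.7%) genes of 77 tested, with a median log2 fold change of 0.04. The share called was 55.8%, against 64.8% of all tested genes (32.6% higher and 32.2% lower). Without induced replicate 2 the split was 34 higher and 15 lower, and with library totals alone 20 higher and 21 lower. Complex I had 12 higher and 6 lower of 37, complex III 4 and 3 of 9, complex IV 4 and 4 of 13 and complex V 4 and 6 of 18, which is 48.6%, 77.8%, 61.5% and 55.6% called. The leading genes were Ndufv3 of complex I at 0.39 (adjusted p = 4.3e-05), Uqcrq of complex III at 0.49 (adjusted p = 6.67e-06), Cox6a2, the heart and muscle form of a complex IV subunit, at 3.48 from 0.555 ± 0.0976 to 6.27 ± 0.809 CPM (adjusted p = 2.74e-10), and Atp5g2 of complex V at -0.62 (adjusted p = 2.97e-07). Complex II, which has no mitochondrially encoded subunit, had 0 higher and 2 lower of 4, with Sdha at -0.22 (adjusted p = 0.000468).

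**Figure D5:**
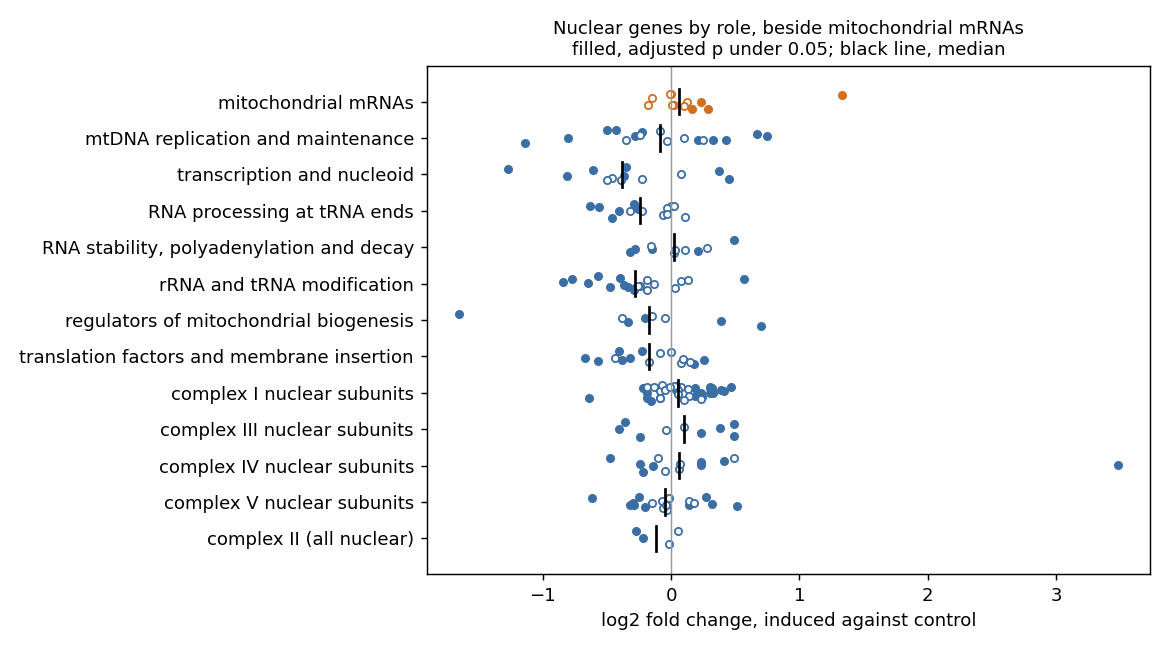
Log2 fold change of induced against control cells for each tested nuclear gene by role (blue), beside the 12 tested mitochondrial mRNAs (orange), filled where the adjusted p was under 0.05 and with the median of each group as a black line. The medians of transcription and nucleoid (-0.38), modification (-0.28) and tRNA end processing (-0.25) lie below those of the mitochondrial mRNAs (0.06) and of the nuclear subunits of complexes I, III, IV and V (-0.05 to 0.10).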

How the data were processed

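RNA was extracted from 3 control and 3 induced samples of iCDCs, which the labels name as separate samples, and sequenced. The p-values measure the spread between these samples. The authors deposited 1 table of raw read counts per gene, without normalization, and of FPKM values, in which a count is divided by gene length and depth. Per the submitters' processing notes, HISAT2 2.0.5, featureCounts 1.5.0-p3 and DESeq2 1.16.1 were used with mm10. The strand setting and the treatment of reads with several matches are not given in the sources used here. The deposited fold changes and p-values of the authors were not used.

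The members were all genes on MT. Members and lists were chosen with earlier results of these data known. The test of counts was that of edgeR 4.0.16 in R 4.3.3 (filterByExpr with a minimum count of 10 and a minimum total of 15, TMM, two-sided quasi-likelihood test, Benjamini-Hochberg adjustment over 14246 genes at 0.05). The biological coefficient of variation was 5.82%. For the class sums, the MT genes were replaced by 3 summed genes. Shares and ratios were compared by exact permutation over 3 against 3 libraries, whose smallest p is 0.1. Standard errors follow from each fold change and its test statistic. Windows of 100 bases and the identity of pseudogenes were computed from GENCODE M21 transcripts with edlib 1.3.9.post1. The named genes were all members, the genes of the chromosome 1 copy, and from the lists those with the smallest p, 2 per role or 1 per complex; Tfam was named after its values were seen. The machinery and subunit lists were written by hand from known roles. The test was checked on simulated data in which few genes changed, as many up as down. That check does not cover data in which 64.8% of the tested genes are called.

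Alternatives were DESeq2 1.42.0, limma 3.58.1 on log2(FPKM + 1) and log2(FPKM + 0.1), median-ratio size factors, library totals alone, scaling without MT genes, no filter, a stricter filter (mean count of 10 and 1 CPM in 3 libraries), an adjusted p of 0.01, a replicate block and leaving out each library. Shares without the 6 genes of the copied stretch were added after the data were seen.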

Additional observations from a re-analysis of the deposited data

How the results depend on the processing

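Few reads limited the tRNAs most, since 12 of 22 could not be tested. Shared sequence limits mt-Co2, mt-Atp6, mt-Co3, mt-Nd3 and mt-Nd4l, and in part mt-Nd4 and mt-Co1. Of 380 values of mitochondrial genes under the alternatives, 331 kept their direction and side of the threshold, 28 changed sign, 14 lost and 7 gained significance, and the genes that changed sign had not passed the test. The causes of these shifts were not tested. The mRNA sum was past the threshold without a filter (0.07) and ranged from 0.03 to 0.10 with single libraries left out. The difference in mitochondrial share ranged from -0.0104 to 0.0709 percentage points in this way. Leaving out single libraries, log2 fold changes changed sign for mt-Tw (-0.19 to 0.06), mt-Co1 (-0.02 to 0.03), mt-Co2 (-0.39 to 0.13), mt-Atp6 (-0.27 to 0.02), mt-Co3 (-0.07 to 0.28), mt-Nd3 (-0.14 to 0.39), mt-Nd5 (-0.04 to 0.06), mt-Nd6 (-0.11 to 0.07), mt-Cytb (-0.04 to 0.05), Gm28439 (-0.07 to 0.35), Gm10925 (-0.20 to 0.00), Gm28661 (-0.04 to 0.66) and Gm29216 (-0.26 to 0.14). Those of mt-Co1 were 0.01 with median-ratio size factors, scaling without MT genes, DESeq2, no filter and limma with either pseudocount, and 0.00 with the stricter filter. With library totals alone mt-Nd5 was at -0.02 and mt-Cytb at -0.03, with median-ratio size factors and DESeq2 mt-Nd6 was at 0.00, and in limma Gm29216 was at 0.02. The replicate numbers did not pair the samples, since the deviations of same-numbered libraries correlated at -0.002, -0.015 and 0.027. With the replicate block, 14 mitochondrial genes passed the test (11 higher, 3 lower) and 9063 of all genes, the mRNA sum was at 0.06, the rRNA sum at 0.25 and the tRNA sum at 0.55, and the calls of mt-Tl2 (-0.76) and Gm28661 (0.36) were gained, while no other call of a named gene or sum changed.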
